A study of Oryza sativa with 21 samples.

Results

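The genes described here are 10 rice genes of grain size signalling, chosen by name and locus identifier, with no measured value in the rule. Earlier results of these data were known when they were chosen. Of the 10, 9 were analysed, and all 9 passed the filter on low counts, which kept 24765 of the 39217 genes in the grain count table. The G protein genes were RGA1/D1 (LOC_Os05g26890), RGB1 (LOC_Os03g46650), DEP1 (LOC_Os09g26999) and GS3 (LOC_Os03g29380), the last of which is not analysed here. The MAP kinase genes were MKKK10 (LOC_Os04g47240), MKK4 (LOC_Os02g54600), MAPK6 (LOC_Os06g06090) and the phosphatase gene GSN1/MKP1 (LOC_Os05g02500). GW2 (LOC_Os02g14720) and GL3.1/PPKL1 (LOC_Os03g44500) completed the set. RGA1, RGB1, MAPK6 and GW2 were also found by symbol in RefSeq (assembly ASM3414082v1) on the chromosome that the locus states, while the other symbols rest on the pairing of locus and name in the gene list.

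RNA-seq was done on grains of paddy-grown rice at 3 days after pollination, from 2 lines that overexpress DRW1, titled D1-OE1 and D1-OE2 and written OE1 and OE2 here, and from wild-type ZH11, with 3 libraries for each. Both lines carry the genotype DRW1-OE in the labels, and ZH11 is labelled WT. The labels do not tie the D1 of the titles to the gene RGA1/D1. The sources used here do not give the promoter of the transgene or how many plants went into a library. The labels do not call a group's 3 libraries separate plants. The p-values therefore reflect the scatter between libraries alone, and that scatter may be technical. The overexpressed gene DRW1 itself is not analysed here.

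A heterotrimeric G protein consists of an alpha subunit that binds GTP and a beta-gamma pair, and passes signals from the plasma membrane into the cell. In rice, RGA1/D1 encodes the alpha subunit and its loss gives dwarf plants with short, round grains. RGB1 encodes the beta subunit, and GS3 and DEP1 encode gamma subunits, of which GS3 restrains grain length and DEP1 shapes the panicle. In the MAP kinase cascade MKKK10 phosphorylates MKK4, MKK4 phosphorylates MAPK6, and active MAPK6 promotes cell proliferation in the spikelet hull and thereby grain size. GSN1/MKP1 removes the phosphates from MAPK6. GW2, a RING-type E3 ubiquitin ligase, and GL3.1/PPKL1, a phosphatase with Kelch repeats, restrict grain width and grain length. These activities are largely set by phosphorylation and protein turnover, which transcript counts do not measure.

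The libraries held 33237306 to 38117144 counts. Levels are counts scaled to library size (CPM) with TMM factors, which assume that most genes do not change, and the TMM factors were 0.863 to 0.907 in the lines and 1.28 to 1.29 in ZH11. A level can be compared between groups for 1 gene but not between genes, because gene lengths were not used. Markers of the tissues within a grain differed between groups. Summed markers of maternal floral and seed coat tissue were at 898 to 918 CPM in OE1 and 971 to 998 CPM in OE2, against 1198 to 1224 CPM in ZH11 (7 genes, 6 of them called lower and 1 higher in OE1, and 4 lower and 1 higher in OE2). Summed green tissue markers were at 493 to 526 CPM in OE1 and 403 to 407 CPM in OE2, against 729 to 738 CPM in ZH11 (7 genes, 4 lower and 1 higher in OE1, and 5 lower and 2 higher in OE2). With library totals as the scaling, no marker of these 2 tissues was higher. That scaling moves the median log2 change of all tested genes to −0.54 in OE1 and −0.55 in OE2. The 9 markers of filling endosperm, 7 called higher and 2 lower in OE1 and 5 higher and 3 lower in OE2, summed to 470 to 487 CPM in OE1 and 219.7 to 225 CPM in OE2, against 302 to 319 CPM in ZH11, and the 4 embryo markers, 3 called higher and 1 lower in OE1 and 1 higher and 0 lower in OE2, to 9.17 to 12.5 CPM in OE1, 13.8 to 17.8 CPM in OE2 and 11.1 to 12.6 CPM in ZH11. With library totals, 6 endosperm markers were higher and 2 lower in OE1, and 4 were higher and 4 lower in OE2. Of the embryo markers 2 were then higher and 1 lower in OE1, and 1 higher and 1 lower in OE2. A sum follows its most abundant genes. OSH1, the embryo marker called lower in OE1, had the highest mean of the 4 in every group (5.08 CPM in OE1, 11.7 CPM in OE2 and 10.4 CPM in ZH11). Among the endosperm markers SSI, lower in both lines, was at 137 CPM in OE1, 56.4 CPM in OE2 and 195 CPM in ZH11. No marker was at 0 in a whole group. The part of these shifts in the changes below was not tested, and in bulk grains fewer cells of a type cannot be told apart from less RNA per cell.

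MKK4, the MAP kinase kinase of the cascade, had the largest increase of the 9 genes in both lines. It stood at 276.8, 303.7 and 281.5 CPM in OE1 and at 258.7, 290.3 and 269.9 CPM in OE2, against 61.7, 55.9 and 56.3 CPM in ZH11. Every library of either line lay more than 4 times above the ZH11 libraries' mean of 58.0 ± 3.27 CPM (SD, n = 3). The log2 change was 2.31 in OE1 (4.96-fold, SE 0.05, adjusted p = 1.57e-29 by edgeR's quasi-likelihood test with Benjamini-Hochberg adjustment over all tested genes, as in every adjusted p below). In OE2 it was 2.24 (4.71-fold, SE 0.05, adjusted p = 3.29e-29). Of all tested genes, 10.6% in OE1 and 15.5% in OE2 had a larger absolute log2 change than MKK4. Between the lines MKK4 did not pass (log2 difference of OE1 minus OE2 0.07, 95% interval −0.02 to 0.17, adjusted p = 0.168), but it did with library totals as the scaling (0.13, adjusted p = 0.0136), with upper quartile factors (0.11, adjusted p = 0.0352) and without OE2 replicate 2 (0.12, adjusted p = 0.0439).

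MAPK6, the kinase that MKK4 activates, changed less than MKK4. It was at 53.2, 62.0 and 56.2 CPM in OE1 and at 80.3, 90.4 and 89.4 CPM in OE2, against 48.1, 49.7 and 47.8 CPM in ZH11. The 3 groups did not overlap, with OE2 highest and ZH11 lowest. The log2 change was 0.84 in OE2 (1.79-fold, SE 0.06, adjusted p = 1.47e-14) and 0.23 in OE1 (1.18-fold, SE 0.06, adjusted p = 0.00101). The OE1 change turned to −0.27 with library totals and to 0.01 with upper quartile factors, where it did not pass, whereas the OE2 change stayed positive and called under every scaling. The difference of OE1 minus OE2 was −0.60 on the log2 scale (SE 0.06, adjusted p = 1.18e-10).

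MKKK10, at the head of the cascade, was not raised in either line. Its values were 63.1, 55.6 and 70.3 CPM in OE1 and 51.9, 50.7 and 54.3 CPM in OE2, against 69.0, 71.0 and 65.5 CPM in ZH11. The OE1 libraries were the most scattered of the 3 groups (CV 11.7%) and overlapped ZH11, and OE2 lay below all ZH11 libraries. MKKK10 fell in OE2, with a log2 change of −0.39 (SE 0.06, adjusted p = 2.38e-06). For OE1 it did not pass (log2 change −0.12, 95% interval −0.25 to 0.01, adjusted p = 0.094). Without OE1 replicate 3, the highest library of that line, the OE1 change was −0.21 (adjusted p = 0.00561), and it also passed with library totals (−0.63) and upper quartile factors (−0.34).

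The phosphatase gene GSN1/MKP1, whose product switches MAPK6 off, rose in both lines. It was at 84.4, 82.8 and 85.7 CPM in OE1 and at 99.2, 108.6 and 111.3 CPM in OE2, against 51.2, 50.2 and 46.1 CPM in ZH11. Again no library of one group fell within the range of another. The log2 change was 0.78 in OE1 (1.71-fold, SE 0.06, adjusted p = 1.45e-14) and 1.11 in OE2 (2.16-fold, SE 0.05, adjusted p = 4.05e-19), and the difference of OE1 minus OE2 was −0.34 (SE 0.05, adjusted p = 1.77e-06). The increase in each line was kept under every scaling, at 0.27 in OE1 and 0.55 in OE2 with library totals.

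**Figure D1:**
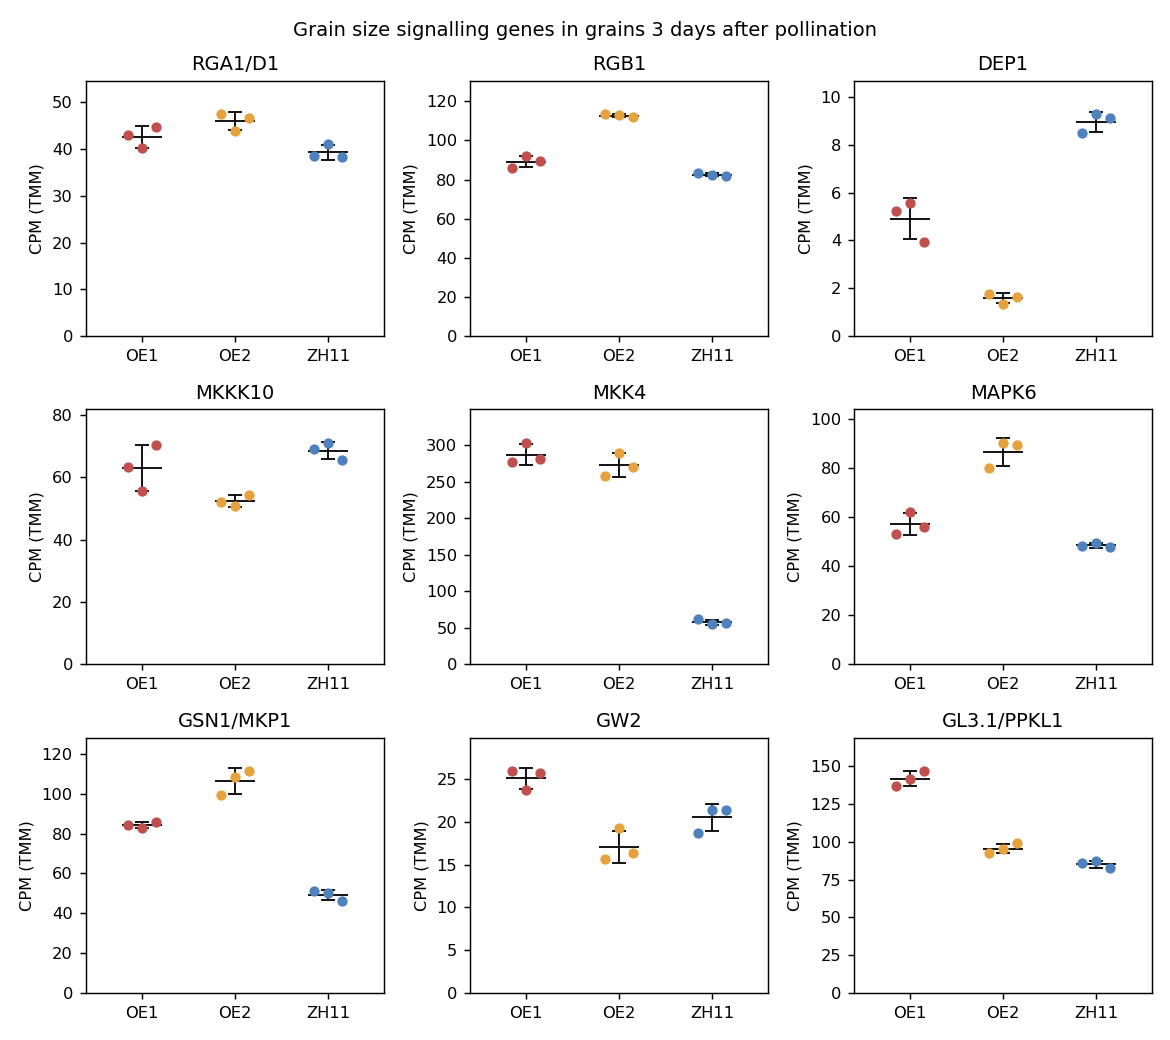
Levels of the 9 genes in each grain library (points, CPM after TMM scaling, axes from 0), with the group mean and SD (bars, n = 3), for OE1, OE2 and ZH11 from left to right. MKK4 stands at 258.7 to 303.7 CPM in the 2 lines and at 55.9 to 61.7 CPM in ZH11, while DEP1 is lowest in OE2; the small differences of RGA1/D1, RGB1 and GW2, of MAPK6 in OE1 and of GL3.1/PPKL1 in OE2 change sign with library totals as the scaling, except GW2 in OE2.

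Of the G protein genes, DEP1 fell in both lines, and by far more in OE2. It was at 5.23, 5.56 and 3.95 CPM in OE1 and at 1.77, 1.35 and 1.62 CPM in OE2, against 8.50, 9.28 and 9.13 CPM in ZH11. These values rest on 118 to 185 counts in OE1, 43 to 57 in OE2 and 402 to 433 in ZH11, the fewest of the 9 genes. All 3 groups were apart, with OE2 lowest. The log2 change was −0.86 in OE1 (1.82-fold lower, SE 0.17, adjusted p = 3.15e-05) and −2.50 in OE2 (5.67-fold lower, SE 0.19, adjusted p = 7.02e-14). Both kept their direction and their call under every scaling, and the level in OE1 exceeded that in OE2 by 1.64 on the log2 scale (SE 0.20, adjusted p = 6.46e-09). Of tested genes, 37.4% in OE1 and 13.1% in OE2 had a larger absolute change than DEP1.

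The alpha and beta subunit genes changed by less than DEP1, at most 1.37-fold with TMM, and in directions that depended on the scaling. RGB1 was at 86.0, 91.9 and 89.6 CPM in OE1 and at 113.4, 112.9 and 111.7 CPM in OE2, against 83.1, 82.5 and 81.8 CPM in ZH11. The groups did not overlap, and the spread within OE2 and within ZH11 was below 1% of the mean (CV 0.745% in OE2 and 0.781% in ZH11). At the 3450 to 4038 counts of these libraries counting error alone would on average give a wider spread, so 3 libraries understate it here. RGB1 passed with a log2 change of 0.45 in OE2 (SE 0.05, adjusted p = 1.72e-10) and of 0.11 in OE1 (SE 0.05, adjusted p = 0.0351), but both signs turned with library totals (−0.11 in OE2 and −0.40 in OE1, both called). In OE1 the call for RGB1 was lost without OE1 replicate 2 or 3, without any 1 of the 3 ZH11 libraries (adjusted p up to 0.126 over these) and without the filter on low counts (adjusted p = 0.0738), and the sign turned with upper quartile factors as well (−0.11).

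RGA1/D1 was at 42.9, 40.1 and 44.8 CPM in OE1 and at 47.4, 43.8 and 46.6 CPM in OE2, against 38.5, 41.2 and 38.2 CPM in ZH11. OE1 overlapped ZH11, and OE2 lay above it. The gene passed with a log2 change of 0.23 in OE2 (SE 0.06, adjusted p = 0.00219) and not with 0.12 in OE1 (95% interval −0.01 to 0.25, adjusted p = 0.108), where it passed only without OE1 replicate 2 (0.16, adjusted p = 0.0488) among the libraries left out. With library totals RGA1/D1 was lower in both lines (−0.39 in OE1 and −0.34 in OE2), and with upper quartile factors it did not pass in either (−0.10 in OE1 and −0.03 in OE2). The lines were not told apart (OE1 minus OE2 −0.11, 95% interval −0.24 to 0.02, adjusted p = 0.145).

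GW2 and GL3.1/PPKL1, which both restrain grain growth, were higher in OE1 than in OE2. GW2 was at 26.0, 23.7 and 25.7 CPM in OE1 and at 15.7, 19.3 and 16.4 CPM in OE2, against 18.8, 21.4 and 21.5 CPM in ZH11. OE1 lay above all ZH11 libraries, while OE2 overlapped ZH11 through OE2 replicate 2 and ZH11 replicate 1. GW2 rose in OE1 (log2 change 0.29, SE 0.09, adjusted p = 0.00516), although with library totals it was lower (−0.22), with upper quartile factors it did not pass (0.07, adjusted p = 0.5), and without ZH11 replicate 1 it did not pass (0.23, adjusted p = 0.0504). It fell in OE2 (−0.26, SE 0.09, adjusted p = 0.0115), a call lost without OE2 replicate 1 (−0.20, adjusted p = 0.072). The difference between the lines was 0.55 (SE 0.09, adjusted p = 3.77e-06).

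GL3.1/PPKL1 was at 137.1, 141.6 and 146.8 CPM in OE1 and at 92.6, 95.2 and 99.1 CPM in OE2, against 86.1, 87.2 and 82.6 CPM in ZH11. OE1 stood well clear of both other groups, and OE2 just above ZH11. The log2 change was 0.73 in OE1 (1.66-fold, SE 0.05, adjusted p = 9.59e-16) and 0.17 in OE2 (1.12-fold, SE 0.05, adjusted p = 0.00236). The OE1 increase was kept under every scaling, at 0.23 with library totals, and the OE2 change turned to −0.40 with library totals and −0.10 with upper quartile factors. OE1 exceeded OE2 by 0.57 (SE 0.05, adjusted p = 1.28e-12).

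Counted together, 6 of the 9 genes were higher and 1 lower in OE1 than in ZH11, and 2 did not pass. In the same comparison 67.7% of all tested genes were called, 33.9% higher and 33.8% lower. In OE2 6 were higher and 3 lower, all 9 called, against 74.4% of all tested genes, 38.4% higher and 36% lower. Over the mean of OE1 and OE2, 6 genes were higher and 2 were lower than in ZH11 (73.6% of all tested genes called, 37% higher and 36.6% lower), and GW2 did not pass (log2 change 0.01, adjusted p = 0.878). With library totals 3 were higher and 6 lower in OE1 and likewise in OE2. Of the 24765 tested genes, 5115 were then higher and 14666 lower in OE1, and 6050 higher and 14233 lower in OE2. With upper quartile factors 3 were higher and 3 lower in OE1, against 6613 higher and 11523 lower of all tested genes. The OE1 libraries did not overlap the ZH11 libraries for 7 of the 9 genes, against 71.8% of all tested genes, and the OE2 libraries for 8 of the 9, against 77.7%. The median log2 change of the 9 genes was 0.23 in OE1 and 0.23 in OE2, against −0.03 in OE1 and 0.01 in OE2 for all tested genes. Their median absolute change was 0.29 in OE1 and 0.45 in OE2, against 0.60 and 0.76 for all tested genes. Of all tested genes, 41.1% in OE1 and 36.1% in OE2 had a larger absolute change than GSN1/MKP1. For MAPK6 these shares were 76.6% in OE1 and 46.5% in OE2, and for GL3.1/PPKL1 43% and 87.2%. For RGA1/D1, RGB1, MKKK10 and GW2 they ran from 67.1% to 88.1% over both lines. Changes of at least 2-fold were called for 1 of the 9 in OE1 (MKK4) and 3 in OE2 (MKK4, GSN1/MKP1 and DEP1), against 30% and 38.2% of tested genes.

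The lines shared their ZH11 libraries, so their changes are set side by side and not correlated. RGB1, MKK4, MAPK6, GSN1/MKP1 and GL3.1/PPKL1 were called higher than ZH11 in both lines, and DEP1 was called lower in both. GW2 was higher in OE1 and lower in OE2. Of all tested genes 67.7% were called in OE1 and 74.4% in OE2, each line taken alone and in either direction. The share called alike in both lines was not counted, so how usual such agreement is cannot be told here. With library totals RGB1, GW2 in OE1, MAPK6 in OE1 and GL3.1/PPKL1 in OE2 were instead lower. Tested directly against each other, OE1 was higher than OE2 for DEP1, MKKK10 (log2 difference 0.27, SE 0.07, adjusted p = 0.000646), GW2 and GL3.1/PPKL1, and lower for RGB1 (−0.34, SE 0.05, adjusted p = 1.37e-07), MAPK6 and GSN1/MKP1. These are 7 of 9 genes, with 65.2% of all tested genes called between the lines, 32.8% higher and 32.4% lower in OE1. The same 7 had no overlap between OE1 and OE2 libraries, as had 67.4% of all tested genes. MKK4 and RGA1/D1 were the 2 that did not pass.

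**Figure D2:**
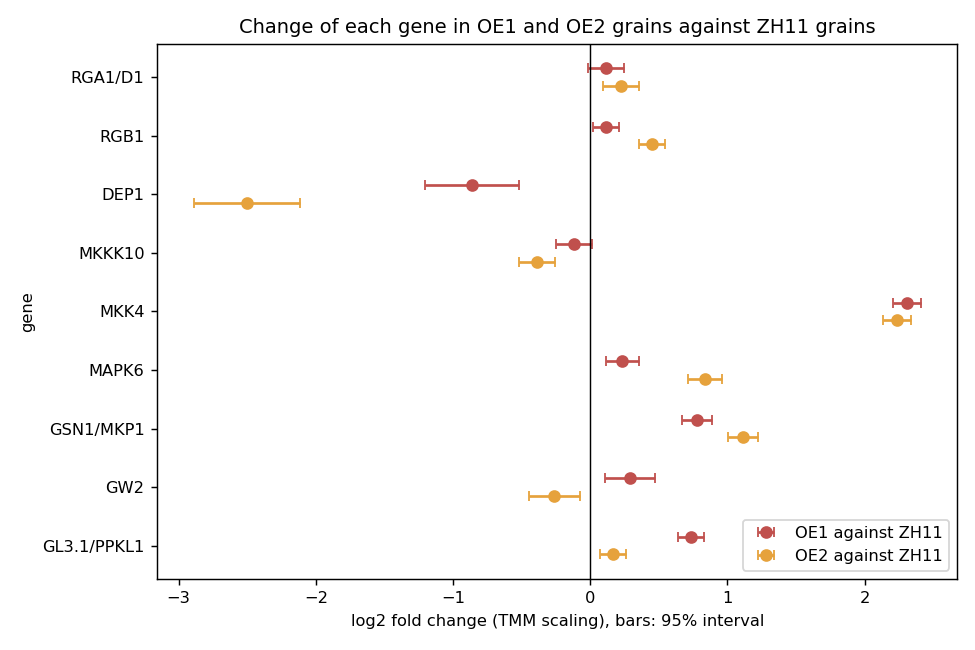
Log2 fold change of each gene (points) with its 95% interval (bars) for OE1 against ZH11 and OE2 against ZH11, from the fit on 9 libraries with TMM scaling. MKK4 is at 2.31 and 2.24, DEP1 at −0.86 and −2.50; RGA1/D1 and RGB1 in both lines, MAPK6 and GW2 in OE1 and GL3.1/PPKL1 in OE2 change sign with library totals.

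The ratio of 2 genes' counts within a library does not depend on how libraries are scaled, and differences between its group values show unequal change of the pair. It is not a ratio of molecules, since gene lengths differ. The share of other gene pairs whose ratios do not overlap between groups was not counted. Of single genes, 71.8% did not overlap between OE1 and ZH11 and 77.7% between OE2 and ZH11. MKK4 counts over MAPK6 counts were 5.20, 4.90 and 5.01 in OE1 and 3.22, 3.21 and 3.02 in OE2, against 1.28, 1.12 and 1.18 in ZH11. The kinase over its substrate was highest in OE1 and lowest in ZH11, with no overlap. MKK4 over MKKK10 was 4.62 ± 0.757 in OE1 and 5.23 ± 0.437 in OE2, against 0.847 ± 0.0550 in ZH11 (SD, n = 3 each), with the lines overlapping each other.

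GSN1/MKP1 over MAPK6, the phosphatase over its target, was 1.59, 1.34 and 1.53 in OE1 and 1.24, 1.20 and 1.25 in OE2, against 1.06, 1.01 and 0.966 in ZH11. The groups were apart in the same order. Set against MKK4, however, GSN1/MKP1 had the opposite order, with 0.294 ± 0.0185 in OE1 and 0.390 ± 0.0201 in OE2, against 0.849 ± 0.0422 in ZH11. The share of MKK4 among the counts of all 9 genes was 35.0% to 37.6% in OE1 and 33.7% to 35.7% in OE2, against 11.9% to 13.3% in ZH11.

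Among the G protein subunits, RGA1/D1 over RGB1 was 0.499, 0.437 and 0.500 in OE1 and 0.419, 0.388 and 0.417 in OE2, against 0.463, 0.499 and 0.467 in ZH11. OE1 covered the whole ZH11 range, and OE2 lay below both. DEP1 over RGB1 was 0.0609, 0.0605 and 0.0441 in OE1 and 0.0156, 0.0119 and 0.0145 in OE2, against 0.102, 0.112 and 0.112 in ZH11. The gamma subunit transcript was lowest against the beta subunit in OE2 and highest in ZH11, with no overlap. GW2 over GL3.1/PPKL1 was 0.177 ± 0.0110 in OE1 and 0.179 ± 0.0202 in OE2, against 0.241 ± 0.0214 in ZH11. The ranges of the 2 lines overlapped in this ratio, and each lay below ZH11.

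**Figure D3:**
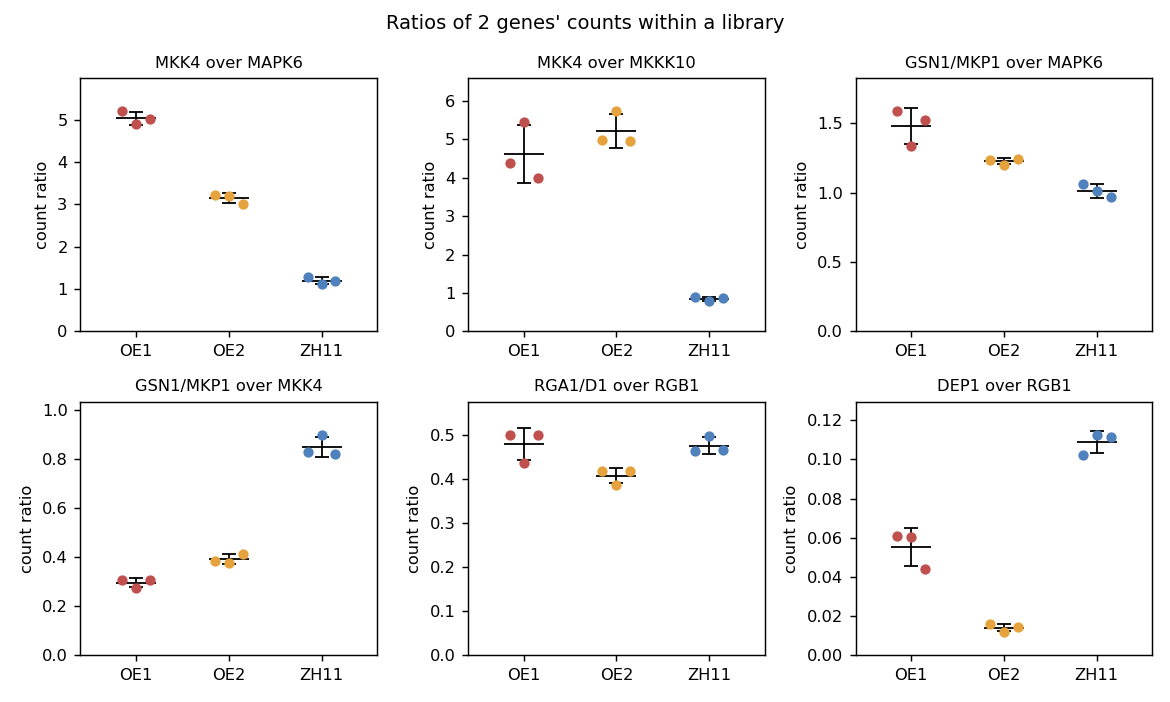
Ratio of 2 genes' counts in each library (points) with group mean and SD (bars, n = 3), for OE1, OE2 and ZH11, axes from 0. MKK4 over MAPK6 falls in 3 separate groups, at 4.90 to 5.20 in OE1, 3.02 to 3.22 in OE2 and 1.12 to 1.28 in ZH11.

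Scaling set the sign of the small changes. With library totals in place of TMM the median log2 change of all tested genes was −0.54 in OE1 and −0.55 in OE2, and with upper quartile factors −0.25 in both. A scaling moves all genes of a comparison together, so their places relative to that median were kept by construction, which is no sign of robustness. RGA1/D1 in OE1 was 0.15 above the median with TMM and 0.15 above it with library totals. MAPK6 in OE1 was 0.27 above with either, MKK4 in OE1 2.34 above with either, and MKKK10 in OE2 stood at −0.40 relative to it with either. Under all 4 scalings tried MKK4 and GSN1/MKP1 were higher and DEP1 lower in both lines. GL3.1/PPKL1 was higher in OE1, MAPK6 higher in OE2, and MKKK10 and GW2 lower in OE2 under all 4 too, each with a call.

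**Figure D4:**
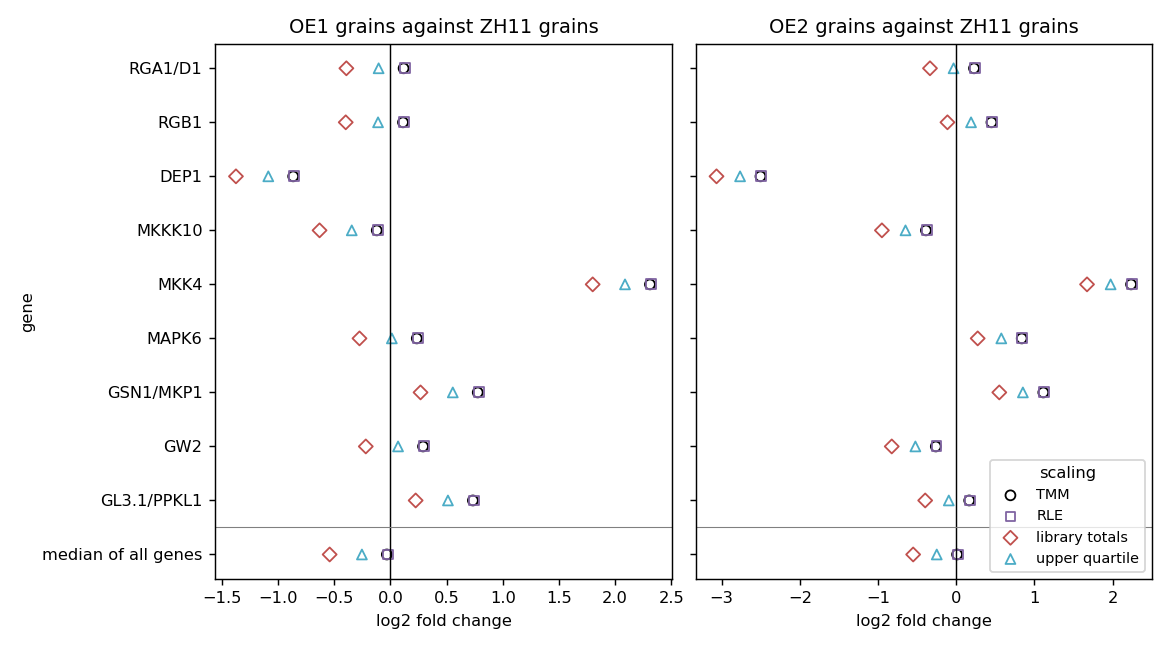
Log2 fold change of each gene, and the median of all tested genes (bottom row), under 4 scalings of the libraries, for OE1 (left) and OE2 (right) against ZH11. Library totals move every gene lower together with the median, to −0.54 and −0.55, which turns the sign of RGA1/D1 and RGB1 in both panels but not of MKK4, GSN1/MKP1 or DEP1.

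Other genes of these pathways were taken from 4 lists of related genes. Of all tested genes 33.9% were higher and 33.8% lower in OE1, and 38.4% higher and 36% lower in OE2. With library totals 5115 of 24765 were higher and 14666 lower in OE1, and 6050 and 14233 in OE2. The counts of all 4 lists stand beside these shares, and whether any list departs from them was not tested. Of 14 other MAP kinase genes tested, 7 were higher and 4 lower in OE1 than in ZH11 (median log2 change 0.17) and 9 higher and 5 lower in OE2 (median 1.01), while with library totals 6 were higher and 8 lower in OE1 and 8 higher and 6 lower in OE2. MPK3, a stress-responsive MAP kinase close to MAPK6 in function, was at 899, 919 and 926 CPM in OE1 and at 228.1, 229.3 and 226.9 CPM in OE2, against 63.0, 64.4 and 62.6 CPM in ZH11. It rose by log2 changes of 3.85 in OE1 (SE 0.04, adjusted p = 1.66e-38) and 1.85 in OE2 (SE 0.04, adjusted p = 3.15e-30), under every scaling. MPK17-2 was at 3.37, 4.03 and 5.45 CPM in OE1 and at 53.1, 52.6 and 50.6 CPM in OE2, against 6.38, 6.14 and 6.35 CPM in ZH11. It fell in OE1, where its log2 change was −0.56 (SE 0.12, adjusted p = 0.000173), and rose in OE2 (3.05, SE 0.10, adjusted p = 1.01e-23). LOC_Os05g49140 of this list, picked after its values were seen, had log2 changes of 4.0 in OE1 and 3.65 in OE2 (adjusted p = 1.98e-37 and 1.23e-36).

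Of 7 other MAP kinase kinase genes, 5 were tested, of which 1 was higher and 1 lower in OE1 and 2 higher and 2 lower in OE2. With library totals 4 of the 5 were lower in OE1 and 3 in OE2. None of the 7 symbols was found in the reference, so none is named. The 8 other G protein genes comprised gamma subunits, extra-large alpha subunits and partners of the alpha subunit. In OE1 6 were higher and 2 lower (median 0.53), and in OE2 4 were higher and 2 lower (median 0.24), while with library totals 3 were higher and 3 lower in OE1, and 2 higher and 5 lower in OE2.

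TUD1, a U-box ubiquitin ligase that acts with RGA1/D1 in brassinosteroid signalling, was at 215.3, 218.7 and 212.6 CPM in OE1 and at 73.2, 67.3 and 66.0 CPM in OE2, against 102.5, 101.7 and 104.8 CPM in ZH11. It rose in OE1, by 1.07 on the log2 scale (SE 0.05, adjusted p = 8.2e-21), and fell in OE2 (−0.58, SE 0.05, adjusted p = 3.56e-13), with the same signs under every scaling. COLD1, a membrane regulator of RGA1/D1 in cold sensing, had a log2 change of 0.45 in OE1 and one of 0.40 in OE2, both called (adjusted p = 5.22e-07 for OE1, 4.05e-06 for OE2), but with library totals −0.057 in OE1 and −0.17 in OE2. The gamma subunit gene RGG1 was scarce, at 0.437 ± 0.290 CPM in OE1 and 0.729 ± 0.194 CPM in OE2, against 1.04 ± 0.162 CPM in ZH11 (SD, n = 3 each). Its log2 change of −1.26 in OE1 passed (SE 0.51, adjusted p = 0.0293) and that of −0.52 in OE2 did not (SE 0.49, adjusted p = 0.343), though it did with library totals (−1.08, adjusted p = 0.0423).

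Of 11 upstream, downstream and parallel grain size partners, 5 were higher and 5 lower in OE1 and again 5 and 5 in OE2 (medians 0.11 and −0.13), and with library totals 2 were higher and 8 lower in each line. RAC1, a small GTPase of the Rop family known to act with MAPK6, was at 9.80, 10.5 and 8.93 CPM in OE1 and at 4.46, 5.73 and 5.60 CPM in OE2, against 21.0, 19.3 and 22.1 CPM in ZH11. It fell, with a log2 change of −1.09 in OE1 (SE 0.12, adjusted p = 3.26e-10) and −1.98 in OE2 (SE 0.12, adjusted p = 2.71e-16). MADS1, a floral transcription factor with which DEP1 and GS3 interact, fell too, with a log2 change of −0.53 for OE1 (adjusted p = 4.06e-09) and −0.98 for OE2 (adjusted p = 9.94e-16). Both kept their direction under every scaling. LOC_Os05g27730 of this list, picked after its values were seen, was at 2870 ± 89.9 CPM in OE1 and 1725 ± 20.1 CPM in OE2, against 238 ± 5.82 CPM in ZH11 (SD, n = 3 each).

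**Figure D5:**
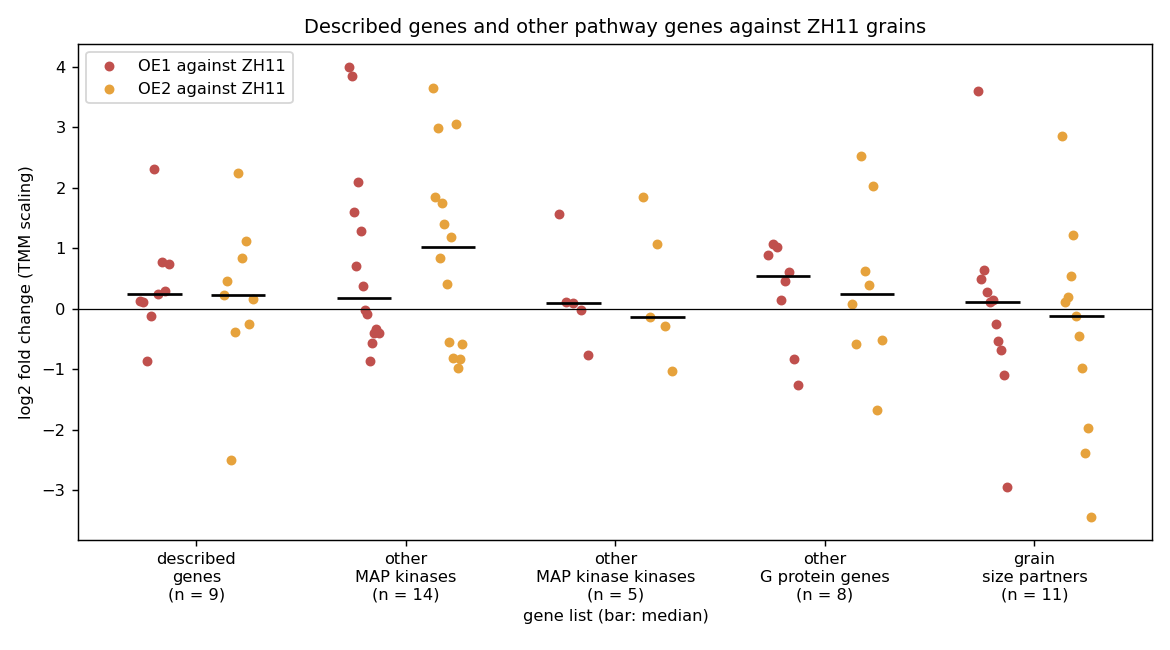
Log2 fold change of each gene (points) and the median (bars) in the 9 described genes and in 4 lists of related genes, for OE1 and OE2 against ZH11 with TMM scaling. Other MAP kinases reach 4.0 in OE1, above MKK4 at 2.31; with library totals the OE1 median of that list turns to −0.34.

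The pattern of each gene over the 9 libraries was compared with those of 46 candidates, the other genes above and the tested genes of the lists, by the root mean square (RMS) difference of log2 CPM after centring each gene. The closest match was between GL3.1/PPKL1 and LOC_Os12g42310 of the partner list (0.07). RGB1 was closest to another partner gene (0.08) and MKKK10 to another (0.11). MKK4 was farthest from its closest match, a gene of the MAP kinase list at 0.22. The closest matches of DEP1 (0.17), MAPK6 (0.16) and GW2 (0.15, the partner gene at the next locus number) came next, followed by those of GSN1/MKP1 and RGA1/D1 (0.12 each). RAC1 was the second match of DEP1 at 0.36, and RGB1 that of both RGA1/D1 (0.13) and MAPK6 (0.17). Libraries fall into 3 groups, so likeness here is mainly of the 3 group levels. The difference was not scaled to the size of a gene's changes, so genes that change little can match closely for that reason.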

How the data were processed

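RNA-seq of rice grains gave a table of counts of reads per gene, deposited by the authors without normalization. Tools named without a role in the submitters' processing notes are BWA, HISAT2, DESeq and featureCounts. No source used here gives the build, the annotation or whether strand was used, so a gene and its antisense partner, or near-identical copies, may share reads. Low counts were more often even than odd, with 64.9% to 68.1% even at 1 to 20 counts, against 49.4% to 50.6% above 100 counts. Samples were grouped by their titles. The seedling m5C peak lists were not used here.

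Tests were run with edgeR 4.0.16 in R 4.3.3: the default expression filter (24765 of 39217 genes tested), TMM factors, and robust quasi-likelihood tests, two-sided, with group as the factor on all 9 libraries. Calls were made at 0.05 on Benjamini-Hochberg adjusted p over all tested genes. An SE is the size of a log2 change divided by the root of its F value, and intervals are at 95%. The procedure was tested on simulated data with few changed genes. Of genes changed 1.5-fold, 70.3% were recovered in OE1 and 67.2% in OE2, and of those changed 4-fold 95.1% in each. Of unchanged genes 0.0499% were called in OE1 and 0.0582% in OE2. The simulation cannot test the scaling where many genes change. With few changed genes the adjustment also sets a stricter cut on the unadjusted p than in these data, where 67.7% were called in OE1 and 74.4% in OE2. The shares recovered and called in the simulation therefore do not carry over to the calls made here. Depth was 33237306 to 38117144 counts. Counting error weighs most on genes of a few CPM or less, among them DEP1, MPK17-2 in OE1, RGG1 and several endosperm and embryo markers. The genes and lists were chosen with earlier results of these data known. In the lists, the up to 4 genes of highest mean CPM whose symbol RefSeq carries (on the chromosome of the locus and in the same order) were named. Of 67 pairs outside the 10 genes, 23 met this. Alternatives were other scalings, no filter, DESeq2 1.42.0, fits on 2 groups, a replicate block, halved counts, and leaving out each library.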

Additional observations from a re-analysis of the deposited data

Results flagged for a closer look

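The lines differed from each other, by edgeR's quasi-likelihood test of OE1 against OE2 with adjustment over all tested genes, in 7 of the 9 genes, against 65.2% of all tested genes called in that comparison. The log2 change in OE1 minus that in OE2 was 1.64 for DEP1 (adjusted p = 6.46e-09), 0.57 for GL3.1/PPKL1 (adjusted p = 1.28e-12), 0.55 for GW2 (adjusted p = 3.77e-06) and 0.27 for MKKK10 (adjusted p = 0.000646). It was −0.60 for MAPK6 (adjusted p = 1.18e-10), −0.34 for RGB1 (adjusted p = 1.37e-07) and −0.34 for GSN1/MKP1 (adjusted p = 1.77e-06). For each of these genes all 3 OE1 libraries lay on one side of all 3 OE2 libraries, and 67.4% of all tested genes were likewise apart between the lines.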

How the results depend on the processing

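DESeq2, its size factors in edgeR, fits on the 2 groups compared, and halved counts (added after the even counts were seen) kept the direction and call of every gene in every comparison they could give. So did the replicate block: with it 6 genes were higher and 1 lower in OE1, as without it. Deviations from group means correlated at −0.0161 to 0.0350 between libraries of the same number and at −0.0303 to 0.0155 between libraries of different number. These values cannot tell whether libraries of the same number were grown or processed together. The block called 67.0% of all genes in OE1 against 67.7% without it. With library totals, genes higher and lower became 3 and 6 in OE1, 3 and 6 in OE2, and 2 and 6 in the mean of both lines; upper quartile factors gave 3 and 3 in OE1. All genes called higher and lower were 5115 and 14666 in OE1 with library totals, against 8399 and 8375 with TMM, and 6050 and 14233 in OE2, against 9506 and 8912. Called genes that were higher made up 25.9% in OE1 and 29.8% in OE2 with library totals, 36.5% and 39.9% with upper quartile factors, and 50.1% and 51.6% with TMM. Signs that turned with library totals were, in OE1, RGA1/D1 (−0.39), RGB1 (−0.40), MAPK6 (−0.27) and GW2 (−0.22), in OE2 RGA1/D1 (−0.34), RGB1 (−0.11) and GL3.1/PPKL1 (−0.40), and in the mean RGA1/D1 (−0.36), RGB1 (−0.25), MAPK6 (−0.00035), GW2 (−0.52) and GL3.1/PPKL1 (−0.086). With upper quartile factors they were RGA1/D1 in OE1, OE2 and the mean (−0.10, −0.035 and −0.069), RGB1 in OE1 (−0.11), GL3.1/PPKL1 in OE2 (−0.10) and GW2 in the mean (−0.23). Both scalings lower every gene with the median, by construction. With 1 library left out, 1 to 2 genes were lower and 4 to 6 higher in OE1, and GW2 in the mean ran from −0.051 to 0.045, never called. Over those settings 311 of 324 values kept direction and call. DEP1 has the fewest counts and the widest intervals.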
